A study of Mus musculus with 23 samples.

Results

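Smooth-muscle contractile genes were followed here as a set of 10 members, Acta2, Actg2, Tagln, Cnn1, Cnn2, Myl9, Myh11, Tpm1, Tpm2 and Des, out of 35523 genes with a row in the tables. The members were taken by name, and the level of each is the sum of the estimated counts over all its transcripts. The study measured RNA in mouse co-cultures of pancreatic stellate cells (PSCs), the fibroblast-like stromal cells of the pancreas, with pancreatic tumour organoids, which are tumour cells grown as small structures in a gel. The cells were kept in reduced/control media in Matrigel, a basement-membrane gel, and after 3.5 days were separated by flow sorting before RNA extraction. The question of the series was what changed in the PSCs, and in the organoids beside them, when the PSCs lacked Egfr, the receptor for epidermal growth factor.

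The PSC fraction had 12 libraries, 4 of Egfr WT cells named Rosa and 8 of Egfr KO cells. The parent line PSC4 was present as the Rosa line and the KO clones A3 and B4, each grown with the organoid lines T6-LOH, T12-LOH and T69A. The parent line PSC5 was present as the Rosa line and the KO clones C5 and D4, each grown with T6-LOH. The organoid fraction had 11 libraries, 4 from cultures with WT PSCs and 7 from cultures with KO PSCs, and the organoids of T69A grown with A3 were not analysed here. Each PSC line gave 1 library per organoid partner. No source used here says how Egfr was disrupted, what Rosa stands for beyond WT, which alleles the organoid lines carry, or whether libraries came from separate rounds of culture. P-values therefore measure the spread between these libraries, and a difference between a clone and its Rosa line cannot be told apart from a difference between cell lines.

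Smooth-muscle cells contract when myosin motors pull on filaments of smooth-muscle actin. Tropomyosins and calponins lie along those filaments and set how freely myosin can bind, and desmin filaments hold the apparatus in place. Stellate cells and fibroblasts switch on many of the same genes when they become myofibroblasts, and Acta2 is the usual marker of that state in pancreatic tumours. Serum response factor (SRF), with the coactivators myocardin and MRTF, binds the CArG box, a short A/T-rich motif found near the start of many of these genes.

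Depth ran from 21823084 to 34828131 estimated counts per PSC library and from 23814409 to 34643087 per organoid library. Egfr transcript lay at 287 to 427 CPM (library-size-scaled counts) in the 4 WT PSC libraries and at 59.7 to 352 CPM in the 8 KO libraries, where the highest was D4. Each KO library was below the Rosa library of its own co-culture in Egfr (8 of 8), while the KO and WT ranges overlapped. In PSC4, Egfr was lower than in Rosa in A3 by a log2 fold change of -1.83 (SE 0.17, edgeR adjusted p = 0.00418) and in B4 by -0.81 (SE 0.16, adjusted p = 0.00694). The 16 stromal markers summed to 5554 to 10370 TPM (a length-scaled level) in KO and 7161 to 11961 TPM in WT PSC libraries, with no marker at 0 in any of them. In organoid libraries the median stromal marker reached 0.0293% of its PSC level, and in PSC libraries the median of 12 epithelial markers reached 0.198% of its organoid level.

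The promoters of 7 of the 10 members (Acta2, Cnn1, Cnn2, Des, Myl9, Tpm1 and Tpm2) were matched by symbol in RefSeq's table for GRCm38.p6. Tagln, Actg2 and Myh11 had no entry. In the 300 bases from 250 before to 50 after each start, on both strands, an exact CArG box (CC, 6 bases that are each A or T, GG) was found in Myl9 and Cnn2. A CArG box with 1 of the 6 inner bases changed to C or G was found in Acta2, at 2 positions, and in Myl9. Of all 32851 promoters in the table, 1.63% held an exact box and 8.5% the changed form. The 250 bases before the start are shown for these 3 members because they carry the matches, which are in capitals and are given 5′ to 3′ along the gene.
Acta2, chr19:34255374-34255623, minus strand: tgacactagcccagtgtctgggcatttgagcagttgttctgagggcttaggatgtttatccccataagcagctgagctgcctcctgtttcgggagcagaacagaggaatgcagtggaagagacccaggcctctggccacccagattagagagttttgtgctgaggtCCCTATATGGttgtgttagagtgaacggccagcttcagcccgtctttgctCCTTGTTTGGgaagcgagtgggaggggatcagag
Myl9, chr2:156775214-156775463, plus strand: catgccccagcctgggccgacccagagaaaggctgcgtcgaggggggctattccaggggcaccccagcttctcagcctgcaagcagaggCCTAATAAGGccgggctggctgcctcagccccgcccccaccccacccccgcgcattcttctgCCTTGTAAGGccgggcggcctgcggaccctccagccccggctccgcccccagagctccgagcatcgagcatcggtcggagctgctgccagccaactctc
Cnn2, chr10:79988350-79988599, plus strand: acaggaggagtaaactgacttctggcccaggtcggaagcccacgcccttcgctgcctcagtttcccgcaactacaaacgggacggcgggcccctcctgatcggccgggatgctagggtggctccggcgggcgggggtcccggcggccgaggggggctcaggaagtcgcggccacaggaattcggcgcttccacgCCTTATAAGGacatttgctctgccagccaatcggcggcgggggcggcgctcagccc
In Acta2 the changed boxes CCCTATATGG and CCTTGTTTGG ended 75 and 25 bases before the start. In Myl9 the exact box CCTAATAAGG ended 152 bases before the start and the changed box CCTTGTAAGG 90 bases before it. In Cnn2 the exact box CCTTATAAGG ended 47 bases before the start. The window of Cnn1, Des, Tpm1 and Tpm2 held neither form. The MCAT motif CATTCC was found in Acta2 and Tpm1 and in 14.7% of all promoters. A match is a stretch of letters and no measure of binding.

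Levels of the members in PSCs differed widely from gene to gene. Per length, the mean level over the 12 PSC libraries was 589 TPM ± 230 (SD) for Tpm1, an actin-filament tropomyosin, and 296 TPM ± 186 for Acta2, the vascular type of smooth-muscle actin. Tpm2 followed at 243 TPM ± 36.7, Cnn2 at 185 TPM ± 62.7, Tagln at 177 TPM ± 114 and Myl9 at 140 TPM ± 79.8. The SDs of these last 4 and of Acta2 overlap, but the genes were measured in the same libraries, and their order within libraries was not tested. Actg2, the enteric type of smooth-muscle actin, averaged 55.7 TPM ± 61.3 and Cnn1, the calponin of differentiated smooth muscle, 24.4 TPM ± 20.9. Des was at 2.71 TPM ± 2.66. Myh11, the heavy chain of smooth-muscle myosin and the most restricted marker of that lineage among the members, was at 0.0787 TPM ± 0.0268 and was close to its level in organoids of 0.0681 TPM ± 0.0402 (n = 11).

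Acta2 stood at 300.0 CPM in Rosa, 426 in A3 and 628 in B4 when PSC4 cells were grown with T6-LOH. It stood at 110 CPM in Rosa, 202 in A3 and 275 in B4 with T69A, and at 30.6 CPM in Rosa, 103 in A3 and 236 in B4 with T12-LOH. In PSC5 with T6-LOH it stood at 265 CPM in Rosa, 251 in C5 and 513 in D4. The order Rosa, A3, B4 was thus the same with all 3 partners, and the order T6-LOH, T69A, T12-LOH the same in all 3 lines, and the highest library exceeded the lowest 20.5 times.

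Actg2 in PSC4 stood at 22.2 CPM in Rosa, 44.0 in A3 and 32.5 in B4 with T6-LOH, at 9.41, 24.6 and 17.1 CPM with T69A, and at 2.99, 12.9 and 16.9 CPM with T12-LOH. In PSC5 it stood at 59.0 CPM in Rosa, 56.2 in C5 and 143 in D4. The lowest library of this gene was again Rosa with T12-LOH, and its span of 47.7 times was the widest among the members.

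Tagln encodes transgelin, an actin-binding protein that appears early in smooth-muscle differentiation. It stood at 115 CPM in Rosa, 158 in A3 and 281 in B4 with T6-LOH, at 46.8, 93.2 and 135 CPM with T69A, and at 9.36, 33.8 and 139 CPM with T12-LOH. In PSC5 it stood at 168 CPM in Rosa, 232 in C5 and 293 in D4. All 3 B4 libraries lay above all 3 Rosa libraries of PSC4. Myl9, the regulatory light chain of smooth-muscle and non-muscle myosin, stood at 61.9 CPM in Rosa, 106 in A3 and 150 in B4 with T6-LOH, at 33.0, 57.9 and 73.0 CPM with T69A, and at 8.97, 31.1 and 74.7 CPM with T12-LOH. In PSC5 Myl9 stood at 73.3 CPM in Rosa, 88.2 in C5 and 135 in D4. The B4 and Rosa libraries were apart in Myl9 as well.

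Cnn1 stood at 10.1 CPM in Rosa, 6.07 in A3 and 51.7 in B4 with T6-LOH, at 7.23, 4.38 and 25.8 CPM with T69A, and at 3.03, 1.94 and 22.0 CPM with T12-LOH. In PSC5 it stood at 24.9 CPM in Rosa, 30.2 in C5 and 28.2 in D4. Here A3 was the lowest of the PSC4 lines with each partner and B4 the highest, so that the KO clones lay on opposite sides of their control. Cnn2, the more widely expressed calponin, spanned 3.43 times, from 99.3 CPM in Rosa with T12-LOH to 341 CPM in B4 with T6-LOH. Tpm1 spanned 3.18 times, from 283 to 903 CPM, and its 9 PSC4 libraries fell into 603 to 787 CPM with T6-LOH, 363 to 400 CPM with T69A and 283 to 399 CPM with T12-LOH. Tpm2 varied least, 1.84 times, from 120 CPM in B4 with T69A to 221 CPM in A3 with T6-LOH.

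Des, the intermediate filament protein of muscle that is also a classical marker of stellate cells, stood at 0.697 to 1.04 CPM in the 3 Rosa libraries of PSC4. It stood at 0.659 to 1.20 CPM in A3 and at 2.38 to 3.35 CPM in B4, so that B4 lay above both. In PSC5 it stood at 5.28 CPM in Rosa, 3.43 in C5 and 8.98 in D4, so that each PSC5 library exceeded every PSC4 library. Myh11 lay between 0.129 and 0.453 CPM in all 12 PSC libraries and was too low to be tested in any comparison.

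**Figure D1:**
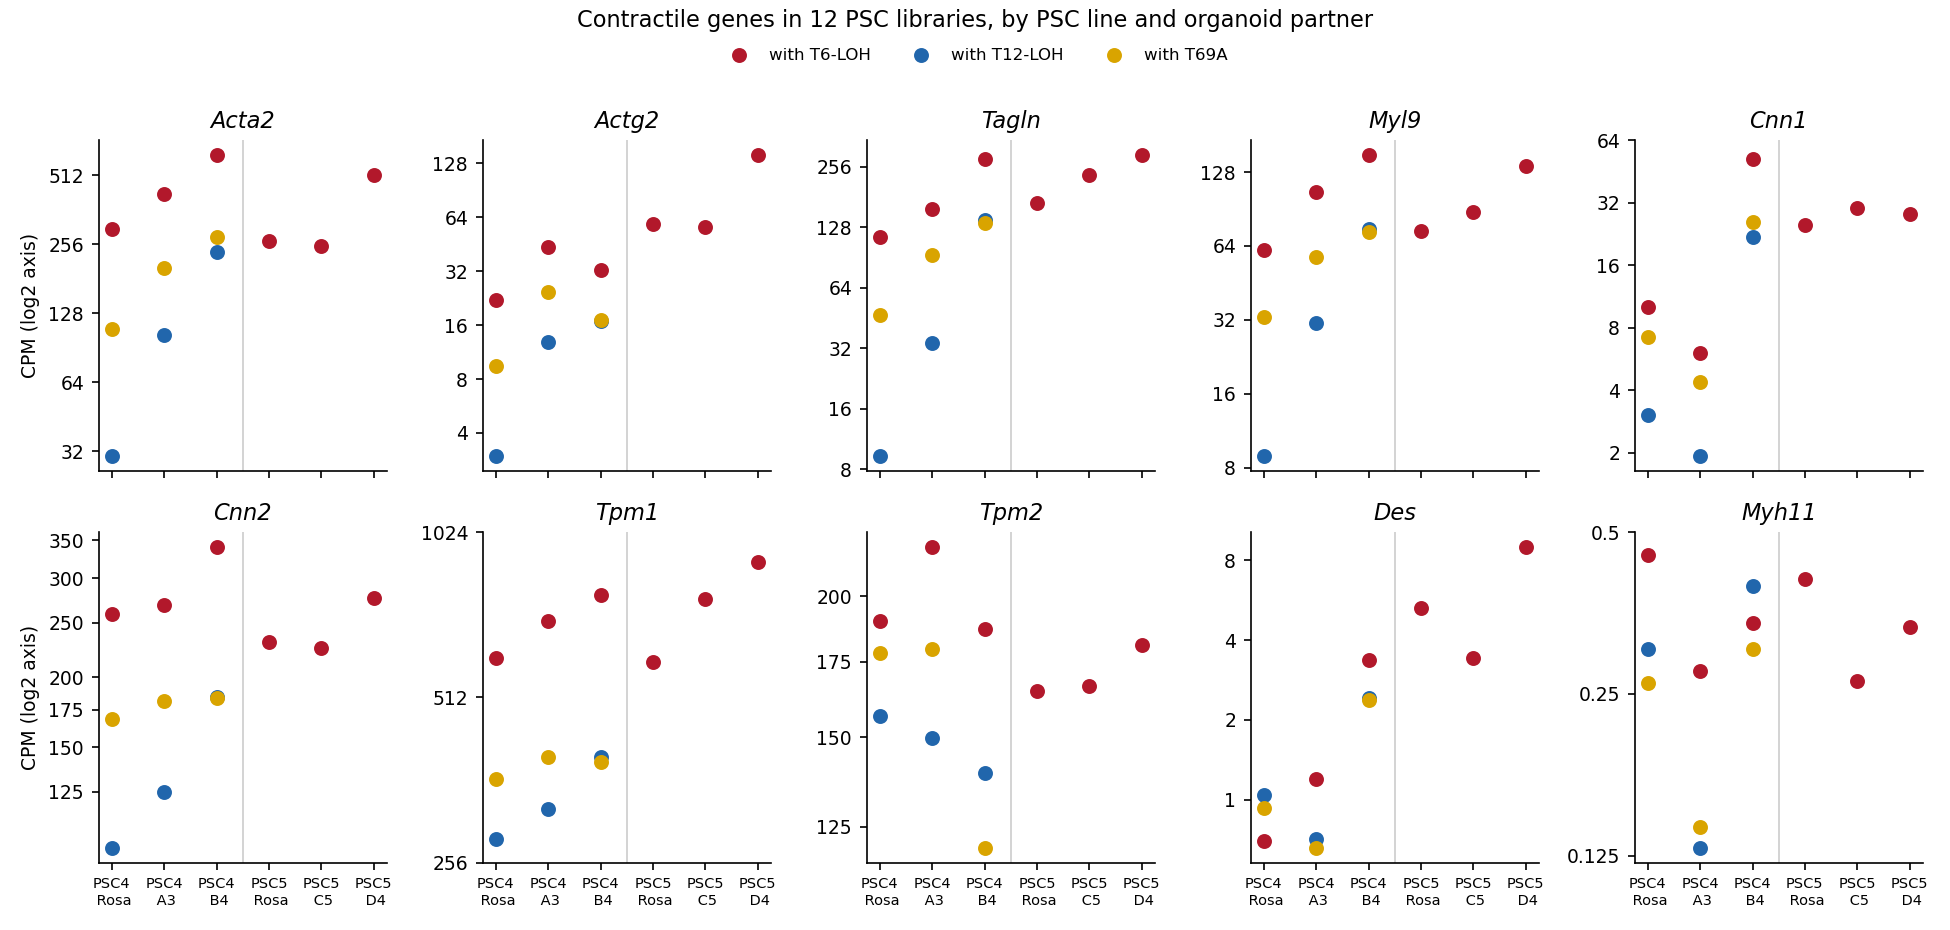
Level of each of the 10 members in the 12 PSC libraries, in CPM on a log2 axis, by PSC line; 1 point is 1 library and its colour is the organoid partner. Libraries grown with T12-LOH (blue) lie below those grown with T6-LOH (red) in all 3 PSC4 lines for 8 of the members, and Cnn1 and Des are high in B4 and not in A3.

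Several members varied together across the PSC libraries. Across the 12 PSC libraries, Pearson's r of log2(CPM + 0.5) was 0.99 between Acta2 and Myl9, 0.96 between Acta2 and Tagln and 0.95 between Acta2 and Cnn2. For Acta2 and Actg2 it was 0.83, for Acta2 and Cnn1 0.71, for Acta2 and Des 0.53 and for Acta2 and Tpm2 0.33. With the mean of each co-culture removed, the first of these values was again 0.99, that of Acta2 with Tpm2 became -0.38, and that of Cnn1 with Actg2 went from 0.60 to 0.19. These values describe 12 libraries that share 6 cell lines and 4 co-cultures. Among 11537 other protein-coding genes with a mean log2 CPM of at least 1, those most like Acta2 over the same libraries were Prss23 (r = 0.96), Arf2 (0.95), Adra1d (0.94), Fez2 (0.93) and Slc1a4 (0.93). Those most like the mean of the 9 tested members' z-scores were Dstn (r = 0.97), Pknox2 (0.96), Prss23 (0.96), Mprip (0.96) and Myh9 (0.95).

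Between KO and WT PSCs, no member passed the test although most leaned higher in KO. With co-culture as a block, 9 members could be tested and 0 passed an adjusted p of 0.05 with edgeR, against 0.0638% of the 14107 genes tested (0.0213% higher and 0.0425% lower). At an unadjusted p under 0.05, 5 members were higher, where 1937 of the 14107 genes reached that p in either direction. DESeq2 called 5 members higher, Acta2, Tagln, Myl9, Tpm1 and Actg2, among 577 genes called. The median log2 fold change of the 9 members was 1.14, and 0.00 for all genes tested. Acta2 averaged 329 CPM ± 176 (SD, n = 8) in KO and 176 CPM ± 128 (n = 4) in WT, a log2 fold change of 1.16 (SE 0.36, edgeR adjusted p = 0.243). The log2 fold change was 1.37 for Tagln (SE 0.48, adjusted p = 0.280), 1.22 for Myl9 (SE 0.34, adjusted p = 0.198), 1.17 for Actg2 (SE 0.32, adjusted p = 0.188) and 0.32 for Tpm1 (SE 0.09, adjusted p = 0.212) with edgeR. It was 1.14 for Cnn1 (SE 0.77), 0.76 for Des (SE 0.52), 0.27 for Cnn2 (SE 0.13) and -0.05 for Tpm2 (SE 0.11), with adjusted p from 0.409 to 0.861.

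Set against the Rosa library of the same co-culture, Tagln, Myl9 and Tpm1 were higher in 8 of 8 KO libraries. Acta2, Cnn2 and Actg2 were higher in 7 of 8, where C5 was the exception for each. Cnn1 and Des were higher in 5 of 8, Tpm2 in 4 of 8 and Myh11 in 2 of 8. The 8 KO libraries share 4 Rosa libraries as controls, so these are not 8 independent comparisons. The share of all genes higher in 8 of 8 was not counted. In the fit, 8 of the 9 tested members and 7171 of the 14107 genes had a log2 fold change above 0. For every member the KO and WT ranges over all libraries overlapped. With counts summed per PSC line (6 samples), Acta2 had a log2 fold change of 0.77 and an adjusted p of 1.00 with edgeR, and no member passed.

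The KO clones of PSC4 were each set against Rosa, and members passed the test in B4. In the fit over the 9 PSC4 libraries with organoid partner as a block, 8 of the 9 tested members were higher in B4 than in Rosa and 0 were lower. In the same comparison 50.2% of the 14093 genes tested were called, 25.2% higher and 25% lower, which is the background of this count. The fold was largest for Cnn1 (log2 fold change 2.35, SE 0.19, edgeR adjusted p = 8.79e-05) and Tagln (2.17, SE 0.52, adjusted p = 0.0185). Myl9 rose by 1.77 (SE 0.37, adjusted p = 0.0114), Acta2 by 1.75 (SE 0.37, adjusted p = 0.0119), Des by 1.59 (SE 0.31, adjusted p = 0.00368) and Actg2 by 1.21 (SE 0.35, adjusted p = 0.0319) on the log2 scale with edgeR. Cnn2 rose by 0.48 (adjusted p = 0.0193) and Tpm1 by 0.34 (adjusted p = 0.00877), and Tpm2, at -0.24 (adjusted p = 0.0946), did not pass edgeR's test. The median over the 9 members was 1.59, against 0.01 for all genes. Leaving out each of the 9 libraries in turn left 6 to 8 members called higher, and Acta2, Myl9, Cnn1 and Des passed every time.

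In A3 against Rosa, 0 members passed with edgeR in either direction, against 7.41% of genes (3.35% higher and 4.06% lower). At an unadjusted p under 0.05, 3 members were higher and 1 lower, where 3297 of 14093 genes reached that p. DESeq2 called Actg2 higher and Cnn1 lower. Actg2 had a log2 fold change of 1.35 (SE 0.34, edgeR adjusted p = 0.0765), Myl9 of 1.01 (SE 0.36, adjusted p = 0.175), Acta2 of 0.95 (SE 0.36, adjusted p = 0.195) and Cnn1 of -0.72 (SE 0.20, adjusted p = 0.0724). The A3 and B4 comparisons share controls: both were set against the same 3 Rosa libraries, so their values are not independent.

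The direct test of B4 against A3 called 2 members higher and 0 lower, with 49% of genes called in that comparison, 24.4% higher and 24.6% lower, so that the members' share was no larger than that of all genes. Cnn1 was higher in B4 by 3.07 on the log2 scale (SE 0.20, edgeR adjusted p = 5.48e-05) and Des by 1.70 (SE 0.31, adjusted p = 0.00313), and both were higher with all 3 partners. Acta2, at 0.79 (SE 0.36, adjusted p = 0.122), Tagln, at 1.23 (SE 0.50, adjusted p = 0.0937), and Myl9, at 0.76 (SE 0.36, adjusted p = 0.136), were not called by edgeR. Without Rosa with T12-LOH (library 23) 6 members were called higher, among them these 3. Actg2 was at -0.15 (SE 0.33) in this comparison.

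**Figure D2:**
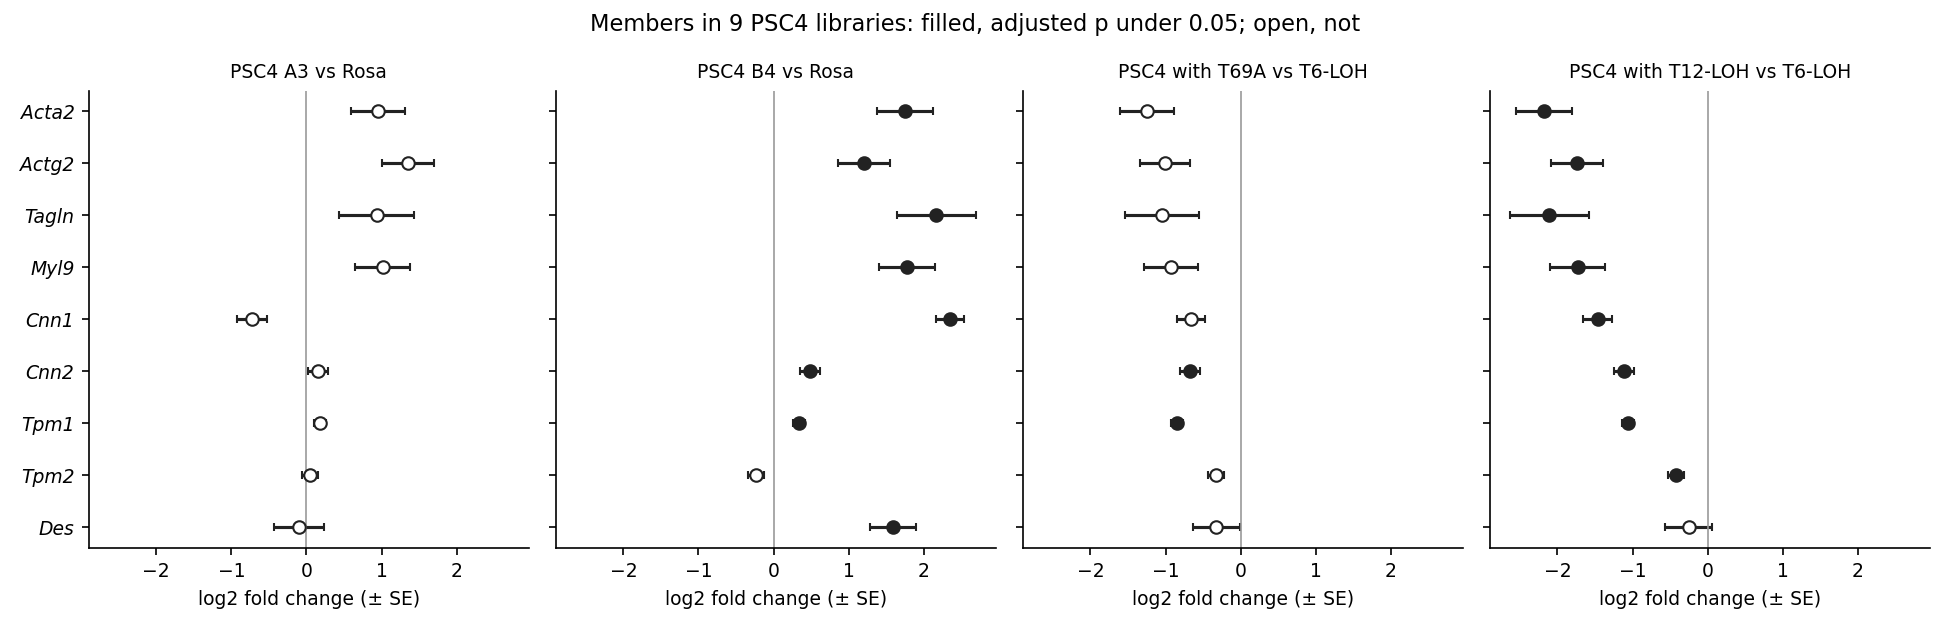
Log2 fold change with its SE for the 9 tested members in the 9 PSC4 libraries, for each KO clone against Rosa and for each organoid partner against T6-LOH; filled points have an edgeR adjusted p under 0.05. B4 has 8 filled points to the right of 0 and T12-LOH has 8 to the left, while A3 has none.

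The members also differed by organoid partner. In PSC4 cells grown with T12-LOH, 8 of the 9 tested members were lower than with T6-LOH and 0 higher, against 17.8% of genes called, 9.25% lower and 8.53% higher. The log2 fold change was -2.18 for Acta2 (SE 0.38, edgeR adjusted p = 0.0175), -2.11 for Tagln (SE 0.52, adjusted p = 0.0477), -1.74 for Actg2 (SE 0.35, adjusted p = 0.0243) and -1.73 for Myl9 (SE 0.37, adjusted p = 0.032). It was -1.46 for Cnn1 (SE 0.19, edgeR adjusted p = 0.00326), -1.11 for Cnn2 (SE 0.13, adjusted p = 0.00307), -1.06 for Tpm1 (SE 0.08, adjusted p = 0.000463) and -0.42 for Tpm2 (SE 0.10, adjusted p = 0.0319). Des, at -0.25 (adjusted p = 0.625), was not called. The median over the members was -1.46, against 0.01 for all genes.

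The 8 members were lower with T12-LOH in each of Rosa, A3 and B4. For Acta2, Actg2, Cnn2, Tpm1 and Tpm2 the ranges of the 3 libraries with each partner did not overlap. For these and the other ranges given here, the share of all genes that lay apart was not counted, so they have no background. The drop of Acta2 was steepest in Rosa, from 300.0 to 30.6 CPM, and in B4 it went from 628 to 236 CPM. With 1 library per line and partner this difference between lines could not be tested, and the PSC4 fit counts it as error. The number of calls rested on single libraries. It was 5 without library 17, 20 or 22, 3 (Cnn1, Cnn2 and Tpm1) without A3 with T6-LOH (library 21) or A3 with T12-LOH (library 24), and 4 without A3 with T69A (library 18) or with no filter on low counts. Of the 16 stromal markers, 12 were also lower and 3 higher in this comparison, Fbn1 (fibrillin) at -1.46 and Fn1 (fibronectin) at -1.57 on the log2 scale among them. Their summed level was 5661 to 7167 TPM with T12-LOH and 8809 to 10068 TPM with T6-LOH, and their part in the result was not tested.

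The T69A and T12-LOH comparisons share the 3 T6-LOH libraries. With T69A, 2 members, Tpm1 at -0.84 (SE 0.08, edgeR adjusted p = 0.0126) and Cnn2 at -0.68 (SE 0.13, adjusted p = 0.0415), were lower than with T6-LOH, against 4.31% of genes called, 1.45% lower and 2.85% higher. All 9 tested members had a value below 0, with a median of -0.84, and 7 had an unadjusted p under 0.05, as had 3607 of 14093 genes. Acta2 was at -1.25 (SE 0.36, edgeR adjusted p = 0.109), and its 3 libraries with T69A, at 110 to 275 CPM, lay below the 3 with T6-LOH, at 300.0 to 628 CPM. The count was 0 without library 18 (A3 with T69A), without library 21 (A3 with T6-LOH) or without library 17 (Rosa with T69A), 1 without library 19, 20, 22 or 24, 4 without library 25 and 5 without library 23, and DESeq2 called 5. Epithelial markers moved with this partner. They summed to 128 to 177 TPM in PSC4 with T69A, 49.5 to 100.4 TPM with T6-LOH and 21.4 to 55.2 TPM with T12-LOH, and 6 of 12 were called higher with T69A than with T6-LOH. None of the 12 was at 0 in these libraries, and their part in the result was not tested.

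PSC5 and PSC4 could be compared only with T6-LOH, over 3 libraries each. No member passed with edgeR, against 0.0145% of genes, and 2 were higher at an unadjusted p under 0.05, which 1735 of 13799 genes reached. DESeq2 called Actg2 higher, among 604 genes called. Des had a log2 fold change of 1.91 (SE 0.64, edgeR adjusted p = 0.353) and Actg2 of 1.40 (SE 0.35, adjusted p = 0.286). Acta2 was at -0.36 (SE 0.30, adjusted p = 0.644). Whether the KO difference itself differed between the parents was tested by an interaction over 12 libraries. It was called for 0 members and 0% of genes by edgeR, with 0 members at an unadjusted p under 0.05 and 0 called by DESeq2. For Acta2 the difference was -0.87 (SE 0.77, edgeR adjusted p = 0.985).

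The rest of the contractile apparatus moved with the members only in part. Of 27 other genes of the apparatus and its anchors, 24 were tested in PSC4. Of these, 14 were higher and 3 lower in B4 than in Rosa, where 25.2% of all genes were called higher and 25% lower. Among the 4 with the smallest p, Nexn, an actin-binding protein, was at 0.82 (SE 0.11) and Ppp1r12a, the targeting subunit of myosin phosphatase, at 0.69 (SE 0.08). Filip1l, at -0.72 (SE 0.07), and Tln1 (talin), at -0.54 (SE 0.07), fell, with edgeR adjusted p from 0.000134 to 0.000656. The median of the 24 was 0.32. With T12-LOH, 14 of the 24 were lower and 0 higher than with T6-LOH, with a median of -0.59, where 9.25% of all genes were called lower. Synm (synemin) was at -3.48 (SE 0.39), Vcl (vinculin) at -0.97 (SE 0.10), Flna (filamin A) at -0.55 (SE 0.09) and Cald1 (caldesmon) at -0.48 (SE 0.08), each with an edgeR adjusted p under 0.05. With T69A 3 of the 24 were lower (Nexn, Synm and Vcl), where 1.45% of all genes were called lower. In A3 and in KO against WT 0 passed with edgeR, with 8 and 6 at an unadjusted p under 0.05 in either direction. Of all genes, 3297 of 14093 in A3 and 1937 of 14107 in KO against WT reached that p.

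Non-muscle and striated relatives of the members gave a mixed picture. Of 16 relatives 13 were tested, and in B4 against Rosa 6 were higher and 3 lower, where 25.2% of all genes were called higher and 25% lower. The 3 lower ones were non-muscle tropomyosins and a calponin, Tpm3 at -0.67 (SE 0.07), Tpm4 at -0.54 (SE 0.10) and Cnn3 at -0.40 (SE 0.06), while Myl12a, a non-muscle light chain, was at 0.35 (SE 0.07), with edgeR adjusted p from 0.000185 to 0.00564. Thus Tpm1 rose while Tpm3 and Tpm4 fell in the same cells, and Cnn1 and Cnn2 rose while Cnn3 fell. Tpm3 and Cnn3 were also the 2 relatives called lower in A3 (-0.32 and -0.28). With T12-LOH 7 of the 13 were lower, among them Myl12a, Myl12b, Myl6 and Cnn3, at -0.74 to -0.55, and 0 were higher. Of all genes, 9.25% were called lower in that comparison.

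Of 22 regulators, 21 were tested. In B4 against Rosa 5 were higher and 3 lower, a smaller share than the 50.2% of all genes called there, with Srf itself at 0.46 (SE 0.07), Smad3 at 0.44 (SE 0.06), Mef2d at -0.51 (SE 0.05) and Foxo4 at -0.40 (SE 0.07), each with an edgeR adjusted p under 0.01. In A3, Myocd (myocardin) was higher than in Rosa by 1.87 (SE 0.37, adjusted p = 0.0263) and Mrtfa by 1.27 (SE 0.24, adjusted p = 0.0242), and Mef2d was lower by -0.27 on the log2 scale with edgeR. Myocd was low in all libraries. Between PSC4 lines grown with T6-LOH or T69A, it was higher in A3 than in Rosa, as was Acta2, and lower in B4, where Acta2 was highest. With T6-LOH it stood at 2.33 CPM in Rosa, 8.00 in A3 and 1.36 in B4, with T69A at 1.54, 7.58 and 0.518 CPM, and with T12-LOH at 0.173, 0.355 and 0.159 CPM. B4, which had the highest Acta2 in PSC4, had the lowest Myocd with T6-LOH and T69A, while with T12-LOH the levels of B4 and Rosa were too low to be ordered. In PSC5 Myocd stood at 1.71 CPM in Rosa, 2.77 in C5 and 9.68 in D4, which also had the highest Acta2. Mrtfa in PSC4 stood at 5.05 CPM in Rosa, 17.3 in A3 and 14.2 in B4 with T6-LOH. It stood at 3.85, 10.4 and 6.09 CPM with T69A, and at 4.16, 6.26 and 5.01 CPM with T12-LOH. In PSC5 Mrtfa stood at 11.2 CPM in Rosa, 11.5 in C5 and 8.19 in D4. The part of these regulators in the Acta2 levels was not tested. The test of B4 against A3 gave -2.81 for Myocd (SE 0.41, edgeR adjusted p = 0.00101). With T12-LOH 7 of the 21 regulators were lower than with T6-LOH and 0 higher, where 9.25% of all genes were called lower. They were led by Myocd at -4.00 (SE 0.46), Heyl at -3.11 (SE 0.41), Fhl2 at -1.19 (SE 0.16) and Mef2a at -0.45 (SE 0.06), with edgeR adjusted p from 0.00193 to 0.00442. Srf lay between 61.9 and 110 CPM in all 12 PSC libraries.

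**Figure D3:**
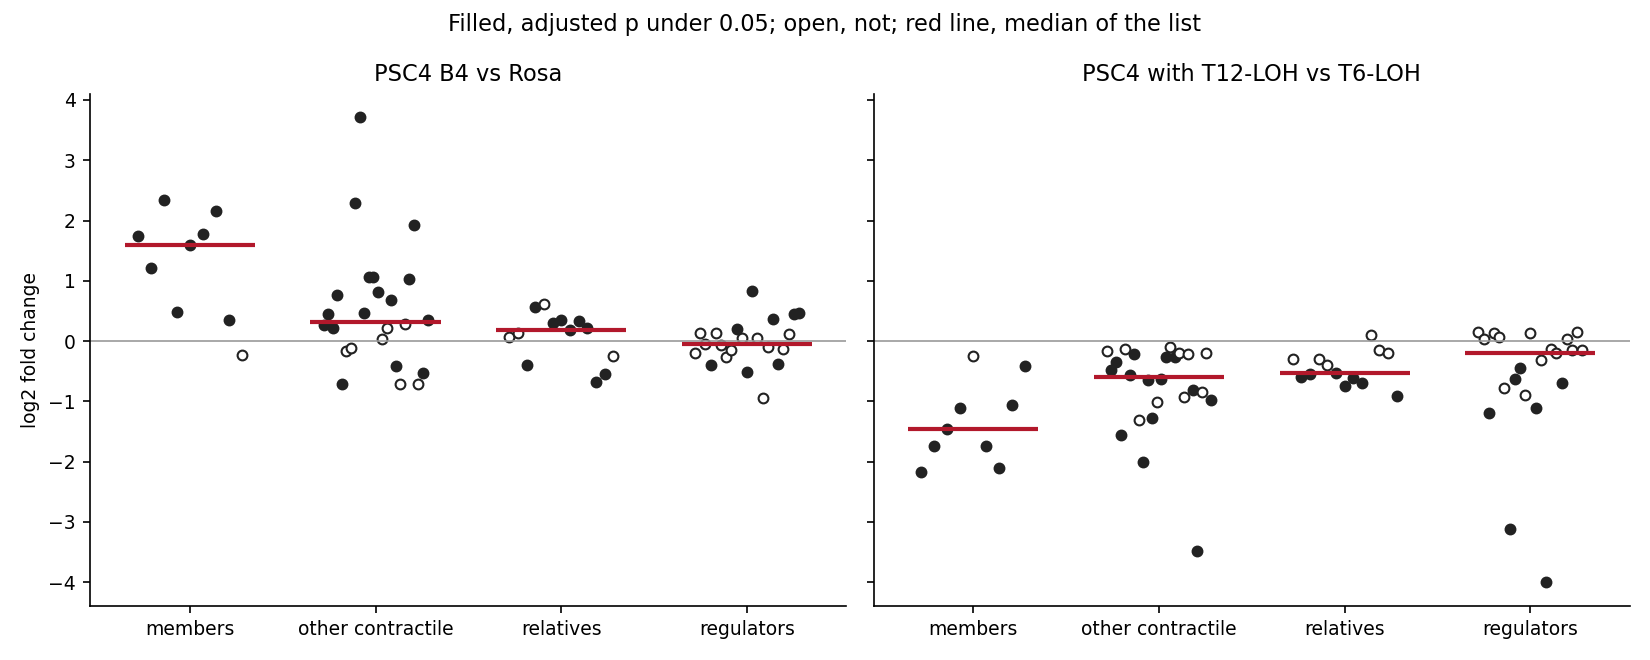
Log2 fold change of each tested gene in 4 lists (the members, 24 other contractile genes, 13 relatives, 21 regulators) for B4 against Rosa and for PSC4 with T12-LOH against T6-LOH; filled points have an edgeR adjusted p under 0.05 and red lines are medians. The members have the median farthest from 0 of the 4 lists, 1.59 in B4 and -1.46 with T12-LOH.

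Markers of pericytes, skeletal muscle and stroma were read beside these changes. Of 8 pericyte markers 6 were tested in B4 against Rosa, where 2 were higher and 4 lower, Rgs5 at 5.40 (SE 0.53) and Cspg4 at -3.78 (SE 0.46) among them. Their summed level was 98.2 to 193 TPM in B4 and 38.1 to 85.7 TPM in Rosa, with 1 to 3 of the 8 at 0 in B4 and 1 in Rosa. Rgs5 averaged 219 CPM ± 92.8 (SD, n = 3) in B4 and 5.01 CPM ± 1.76 (n = 3) in Rosa. Cspg4 averaged 0.312 CPM ± 0.158 in B4 and 4.28 CPM ± 2.75 in Rosa. The higher sum in B4 therefore does not describe the list as a whole. With T12-LOH 3 of the 6 were lower than with T6-LOH and 0 higher, Notch3 at -1.70 (SE 0.18) and Cspg4 at -2.85 (SE 0.43) among them. The list summed to 21.0 to 98.2 TPM against 79.3 to 103 TPM, where the 98.2 TPM was the B4 library. Of the 16 stromal markers 3 were higher and 5 lower in B4 than in Rosa, Lum at -3.59 (SE 0.30) and Sparc at 0.49 (SE 0.11) among them, with sums of 7167 to 10068 TPM in B4 and 7161 to 8944 TPM in Rosa. Of 10 skeletal-muscle markers, 5 to 7 were at 0 in each PSC4 library with any partner, and the list summed to at most 4.02 TPM in B4 and 14.0 TPM in Rosa. Myod1, the muscle regulator of that list, was lower in B4 (-6.83, SE 0.47) and higher with T12-LOH (3.98, SE 0.35), in both cases opposite to Acta2. The part of these lists in the changes of the members was not tested. In bulk RNA a change in the number of cells that express a gene cannot be told apart from a change in RNA per cell.

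Sorted organoids held Cnn2 and Tpm1 at high levels, Tpm2 at a lower level that differed by organoid line, and the others close to 0. Acta2 lay between 0.177 and 0.707 CPM in the 11 organoid libraries, a median of 0.108% of the TPM in the PSC library of the same culture. The same median was 0.137% for Tagln, 0.0828% for Myl9, 0.106% for Actg2 and 0.533% for Cnn1. Summed over all 11 organoid libraries, Tagln had 84 estimated counts, Cnn1 30, Myl9 22, Actg2 9 and Des 1. The highest share of Tagln, 4.96%, came from the culture of T12-LOH with Rosa, where the PSC side was itself lowest.

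Cnn2, Tpm1 and Tpm2 were expressed in organoids as well. Cnn2 lay between 110 and 179 CPM and had a median of 50.9% of the PSC TPM. Tpm1 lay between 270 and 323 CPM in T6-LOH, at 404 and 421 CPM in T69A and between 713 and 757 CPM in T12-LOH. Its median was 48.6% of the TPM in the PSCs of the same culture, with a range of 32.4 to 259%. Tpm2 lay between 8.52 and 15.7 CPM in T6-LOH, between 56.8 and 68.0 CPM in T12-LOH and at 92.4 and 92.7 CPM in T69A, so that the 3 organoid lines did not overlap. Its median was 9.81% of the PSC TPM, with a range of 4.27 to 65.7%. The partner in which PSCs had the least Tpm1 was thus the organoid line that had the most, and no test was made of that pairing.

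In the fit over 22 libraries of 11 cultures, 7 of 9 tested members were higher in PSCs and 0 lower, with 75.3% of 14058 genes called, 37.3% higher and 38% lower in PSCs. Acta2 was higher by 9.29 on the log2 scale (SE 0.33, edgeR adjusted p = 5.69e-11), Tagln by 8.62 (SE 0.65, adjusted p = 5.24e-08) and Tpm2 by 2.56 (SE 0.49, adjusted p = 0.00036). Myl9, Actg2, Cnn1 and Des were called too, with fitted sizes that depend on the prior count because organoid counts were few. Cnn2, at 0.46 (SE 0.21, adjusted p = 0.0667), and Tpm1, at 0.29 (SE 0.32, adjusted p = 0.422), were not called by edgeR.

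**Figure D4:**
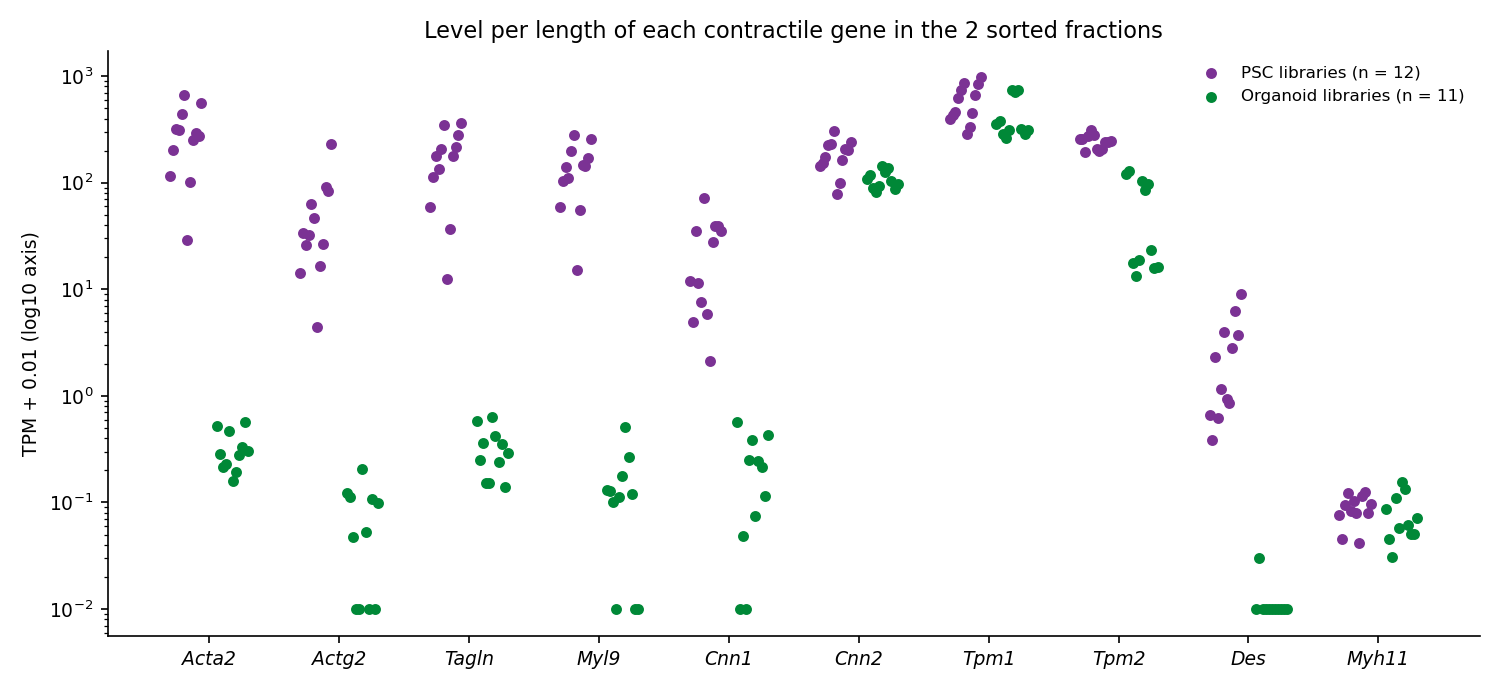
TPM + 0.01 of each member on a log10 axis in the 12 PSC and 11 organoid libraries; 1 point is 1 library. Acta2, Actg2, Tagln, Myl9, Cnn1 and Des separate the fractions, Cnn2 and Tpm1 overlap, and Myh11 is near the floor in both.

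Between organoids grown with KO and with WT PSCs, 4 members were tested and 0 passed with edgeR, against 10.3% of 13939 genes (4.28% higher and 6.05% lower). None reached an unadjusted p under 0.05 and DESeq2 called 0. The log2 fold change was -0.23 for Tpm2 (SE 0.10, adjusted p = 0.177), -0.09 for Cnn2 (SE 0.05, adjusted p = 0.24), 0.16 for Acta2 (SE 0.37, adjusted p = 0.802) and -0.01 for Tpm1 (SE 0.05, adjusted p = 0.947) with edgeR. Of the other contractile genes 3 were higher and 3 lower, with Csrp2 at 0.37 (SE 0.07) and Pdlim7 at -0.53 (SE 0.11). Tagln, with 84 estimated counts over all organoid libraries, was too low to be tested. It was above the WT library of its own co-culture in 0 of 7 KO organoid libraries. The same count was 1 of 7 for Cnn1, Cnn2, Tpm2, Actg2 and Des, 3 of 7 for Myl9 and Tpm1, 4 of 7 for Myh11 and 5 of 7 for Acta2. The 7 libraries share 4 WT libraries, and the share of all genes was not counted. Of 8 stromal markers tested in this comparison 0 were higher and 3 lower, Col1a1 at -1.45 among them, and their part in the Tagln values was not tested.

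Although Tpm1 was abundant in both fractions, its transcripts were not the same. Tpm1 makes several tropomyosins from 1 gene, and alternative first exons give a long form of 284 residues and a short form of 248. A pair of mutually alternative exons of 76 bases each also lies in the middle of the coding sequence. The exons differ at 33 of 76 positions, which are in capitals here, and are given 5′ to 3′ along the gene, from GENCODE M21 on GRCm38, because they tell the transcripts apart.
upstream 76-base exon, chr9:67032466-67032541, minus strand: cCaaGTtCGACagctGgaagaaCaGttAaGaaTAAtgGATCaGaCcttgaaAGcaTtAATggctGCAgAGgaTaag
downstream 76-base exon, chr9:67031951-67032026, minus strand: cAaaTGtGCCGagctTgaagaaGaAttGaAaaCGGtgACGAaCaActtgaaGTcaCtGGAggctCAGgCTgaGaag
Of the Tpm1 TPM in protein-coding transcripts with either exon, the upstream exon took 25.0% ± 5.34 (SD, n = 12) in PSC libraries and 83.4% ± 5.44 (n = 11) in organoid libraries. The PSC range was 14.6 to 33.7% and the organoid range 75.2 to 91.1%, so that the fractions were far apart. The share was higher in organoids in all 11 cultures (exact paired permutation test, two-sided p = 0.000977, the smallest that 11 pairs allow, adjusted p = 0.00146 over 3 shares). The 11 cultures share 3 organoid lines and 6 PSC lines, so the pairs are not independent, here and in the tests of the other Tpm1 shares.

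The long form took 56.3% ± 8.99 (n = 12) of long plus short Tpm1 in PSCs and 32.6% ± 9.37 (n = 11) in organoids, and was the higher in PSCs in 9 of 11 cultures (exact paired permutation p = 0.00391, adjusted p = 0.00391). The exceptions were T12-LOH with Rosa (39.5% in PSCs, 48.4% in organoids) and with A3 (43.9% and 44.0%). In T12-LOH cultures the means were close, 47.1% in PSCs and 45.9% in organoids (n = 3 each). A second alternative pair of 126 bases, found in long transcripts, was used mostly in its downstream version in both fractions. The upstream version took 2.94% ± 0.871 (n = 12) in PSCs and 9.06% ± 1.69 (n = 11) in organoids (exact paired permutation p = 0.000977, adjusted p = 0.00146). The short transcript with the upstream 76-base exon made up 53.1% ± 13.6 (n = 11) of Tpm1 TPM in organoids and 1.02% ± 0.802 (n = 12) in PSCs.

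The long transcript with the downstream 76-base exon made up 26.1 to 28.0% of Tpm1 TPM in the 3 PSC4 lines with T6-LOH, 13.2 to 14.9% with T69A and 8.31 to 13.4% with T12-LOH. In PSC5 with T6-LOH it made up 32.9% in Rosa, 30.6% in C5 and 41.2% in D4. In TPM, this long transcript lay between 167 and 226 with T6-LOH, 52.1 and 68.5 with T69A and 24.4 and 59.9 with T12-LOH in PSC4, while the short transcript with the same exon lay between 210 and 282, 178 and 202, and 160 and 168. The long transcript thus differed more between partners than the short one. KO and WT PSCs had shares of it of 22.1% ± 11.2 (n = 8) and 20.3% ± 11.4 (n = 4), and no test was made within PSCs.

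**Figure D5:**
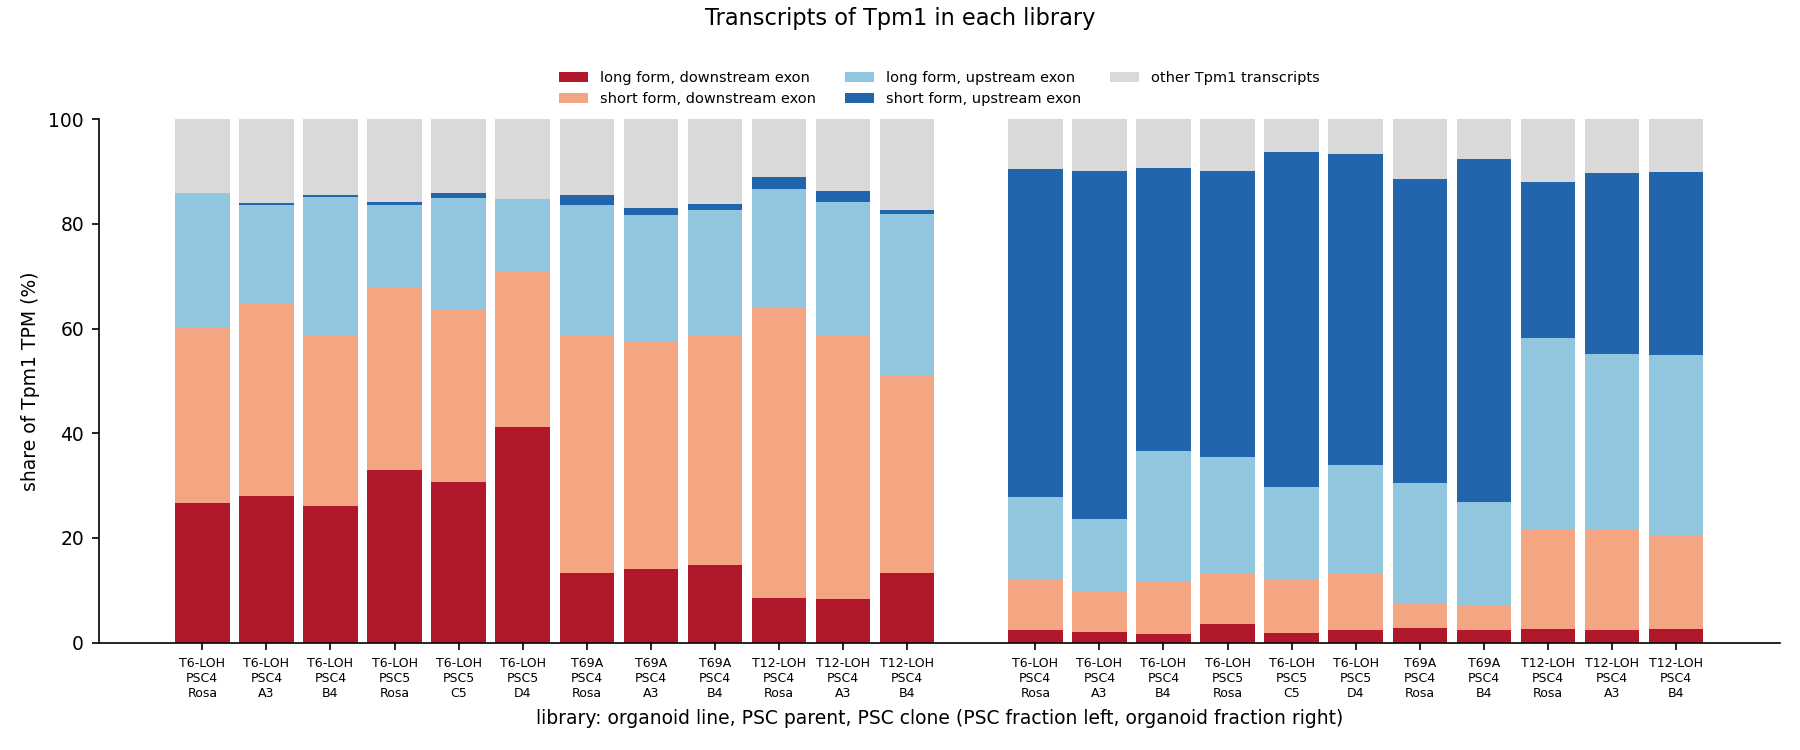
Share of Tpm1 TPM taken by 4 transcripts in each library, as stacked bars from 0 to 100%, with the 12 PSC libraries on the left and the 11 organoid libraries on the right. Transcripts with the downstream 76-base exon (red and orange) fill most of the PSC bars and those with the upstream exon (light and dark blue) most of the organoid bars, and the long downstream-exon transcript (red) is largest with T6-LOH.

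Of the 31-base words in the main coding transcript of each member, 30 of 2005 occurred in a transcript of another gene for Acta2, the largest share among the members, 19 of 1303 for Actg2, 69 of 6420 for Myh11, and 0 for Tagln, Cnn1 and Tpm1. The shares of transcripts within Tpm1 rest on the submitters' assignment of reads to transcripts, whose error is not in the tables.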

How the data were processed

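RNA-seq of 23 mouse libraries was used. The deposited tables give an estimated count (expected count) and a TPM per transcript, which the authors deposited; per the submitters' processing notes the tool was Salmon 1.9.0 and the build GRCm39 (mm39). Annotation, read length, kit and strand setting: not given in the sources used here. Of 117135 transcripts, 115973 (99.0%) were matched by identifier to GENCODE M21, which is on GRCm38 and gave names and exons only; unmatched transcripts held 0.364 to 0.443% of reads and were left out.

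Estimated counts were summed per gene and rounded. The test was edgeR's quasi-likelihood test (version 4.0.16, R 4.3.3; TMM, filterByExpr, robust glmQLFit and glmQLFTest), with Benjamini-Hochberg adjustment over all genes tested and a threshold of 0.05, and the standard error is the log2 fold change divided by the square root of F. CPM uses TMM library sizes within a fraction, and TPM, summed per gene, serves for levels between genes and fractions. The fit over PSC4 had 9 libraries and 4 residual degrees of freedom, the KO fit over PSCs 12 and 7, that over organoids 11 and 6. Libraries carry the leading number of their title, and no number is shared between groups. The edgeR step was tested on simulated data for KO against WT PSCs and for B4 against Rosa. Named genes are all 10 members, Egfr, and up to 4 genes per list with the smallest p in a comparison; Fbn1, Fn1, Myod1, Rgs5, Cspg4, Notch3, Lum and Sparc fall under that rule. Myocd and Mrtfa were given in every PSC library after their values were seen. The Tpm1 transcripts, the 4 coding ones with the highest summed TPM, were also named after their values were seen. The members and lists were chosen with earlier results of these data known. DESeq2 1.42.0, other size factors, no filter, left-out libraries and other blocks were the alternatives.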

Additional observations from a re-analysis of the deposited data

Results flagged for a closer look

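In groups of 4, 7 or 8 libraries, 39 sets of member values were checked for a library far from the rest, and 4 stood apart. The check marks about 1 in 20 sets of independent, normally spread values. These groups mix cell lines and partners, and members vary together, so that rate is no baseline here. Actg2 was at 142.5 CPM in D4 with T6-LOH (library 28), against 56.2 CPM in the next of the 8 KO PSC libraries. Des was at 8.98 CPM in the same library, against 3.43 CPM in the next, and at 5.28 CPM in PSC5 Rosa (library 26), against 1.04 CPM in the next of the 4 WT libraries. All 3 of these values come from PSC5 lines. Des in organoids was at 0.0413 CPM in T69A with B4 (library 4), which is 1 estimated count, and at 0 in the other KO organoid libraries. Cnn1 and Des differed between the KO clones B4 and A3 under the same contrast, by log2 differences of 3.07 and 1.70 with edgeR adjusted p-values of 5.48e-05 and 0.00313.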

How the results depend on the processing

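Of 1221 values of single members recomputed under alternatives, 1108 kept their direction and side of the threshold, 53 fell short of it, 39 newly passed it and 21 changed sign. The 1108 include 10 mean KO differences on the TPM scale, which have no p-value. These were counted as kept because they lay within the SD of the CPM differences. The sign changes concern values that did not pass with all libraries. Tpm2 in KO against WT PSCs became 0.022 without the T69A cultures and ranged from -0.099 to 0.023 without 1 library. Without 1 library, Des in A3 against Rosa ranged from -0.46 to 0.11 and Tpm2 from -0.043 to 0.15, Actg2 in B4 against A3 from -0.58 to 0.089, and Myl9 in PSC5 against PSC4 from -0.19 to 0.16. Egfr, which is not a member and not in these counts, ranged from -0.69 to 0.95 in the difference between the parents. In organoids Tpm1 became 0.0026 with no filter, 0.014 with no co-culture block and -0.034 to 0.023 without 1 library, and Acta2 -0.031 to 0.48.

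Genes called between KO and WT PSCs numbered 9, and became 23 with no filter, 577 with DESeq2, 4 with no co-culture block, 0 without the T69A cultures, 38 in PSC4 alone, 0 with counts summed per line and 0 to 51 without 1 library. DESeq2 called 5 members higher there, 1 higher and 1 lower in A3, 1 lower in B4 against A3, 5 lower with T69A and 1 higher in PSC5. RLE size factors gave 1 lower member in B4 against A3. With DESeq2, genes called were 1136 for T69A, 604 for PSC5 against PSC4 (47 with no filter) and 79 for the difference between parents. In organoids 0 genes were called with no block.

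Without 1 library, genes called ranged from 161 to 1311 in A3, 902 to 2622 for T12-LOH, 1 to 856 for T69A, 0 to 3 for PSC5, 0 to 2 for the difference between parents and 214 to 1910 in organoids. Members called ranged from 0 to 2 higher and 0 to 1 lower in A3, 0 to 1 lower in B4, 2 to 6 higher and 0 to 1 lower in B4 against A3, 3 to 8 for T12-LOH (4 with no filter) and 0 to 5 for T69A. No pairing by the numbers of the labels was possible because no replicate number is shared between groups. Co-culture (organoid line with PSC parent) was the block in the fits of KO against WT and of the difference between parents. The PSC4 fit had organoid partner and PSC line as terms, and PSC5 was set against PSC4 with KO status as the block. Culture (organoid line with PSC line) paired the PSC and organoid fractions in their fit and in the Tpm1 tests. The difference between parents could not be fitted without PSC5 Rosa. Organoid counts of Acta2, Tagln, Myl9, Cnn1, Actg2 and Des were too few to compare KO with WT beyond Acta2.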
